A study of Homo sapiens with 4 samples.

Results

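The TRiC complex, also called CCT, is the cytosolic chaperonin, and it is built from 8 different subunits that are encoded by TCP1, CCT2, CCT3, CCT4, CCT5, CCT6A, CCT7 and CCT8. These 8 genes were found by symbol among the 14431 genes listed, and all 8 passed the filter on low values that left 14199 genes for testing. RNA was sequenced from HGC27 cells, a human gastric cancer cell line, in 2 libraries of control cells and 2 libraries of cells in which AARS1 was knocked down by a small interfering RNA (siAARS1). The labels give wild type as the genotype of the control cells, and all 4 cultures were kept in DMEM without glucose, with 10% serum and antibiotics, and were given 25 mM lactate. The labels state 24 h of lactate, whereas the study's text gives another duration, so the time is uncertain. No library was without lactate, and the sources used here do not say whether the libraries of a group came from separate cultures, so p-values measure only the spread between these libraries. The question put to the data was whether transcripts of the subunits of 1 complex moved together on AARS1 knockdown.

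In the complex the subunits form a pair of stacked rings, each ring holding every subunit once at a fixed position. Newly made proteins enter the cavity, and a built-in lid closes over them as ATP is hydrolysed. Actins and tubulins are its best known clients, and a cell that makes much cytoskeleton needs much of it. Subunits not placed in a ring are unstable as proteins, so the assembled complex holds equal numbers of each, but this rule concerns proteins and sets nothing for transcripts. The subunits differ in how well they bind ATP. TCP1, CCT2, CCT4 and CCT5 lie on the side of the ring that binds ATP strongly, and CCT3, CCT6A, CCT7 and CCT8 lie on the side that binds it weakly.

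Between 30653210 and 33522573 reads per library fell in listed genes, and 1 read was worth 0.0293 to 0.0324 CPM (read counts scaled to the size of the library). The replicates of a group differed by more than sampling noise and were used as separate samples. AARS1, the cytosolic alanyl-tRNA synthetase that was targeted, stood at 428 and 417 CPM in control and at 292 and 298 CPM in siAARS1. The groups did not overlap, and the siAARS1 mean was 69.7% of the control mean (log2 fold change −0.52, SE 0.036, adjusted p = 2.52e-11 by limma). The markers checked for the cell line were mixed. VIM, a mesenchymal marker, was at 4600 to 5131 CPM in the 4 libraries, and ZEB1, a transcription factor of mesenchymal cells, was at 6.16 and 6.84 CPM in control and at 50.03 and 52.31 CPM in siAARS1. The mesenchymal cadherin CDH2 was not listed. CDH1, an epithelial marker, reached at most 2.55 CPM, and neither EPCAM, KRT18 and KRT19 nor any of 5 gastric markers was listed. KRT8, another epithelial keratin, was at 24.8 and 25.2 CPM in control and at 6.61 and 5.08 CPM in siAARS1. COL1A1, a collagen of fibroblasts, was at 2320 and 2399 CPM in control and at 1644 and 1541 CPM in siAARS1. The part of these marker differences in the results was not tested. The leukocyte and endothelial markers PTPRC and PECAM1 were not listed.

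To show what the subunits share and where their messages differ, the stretch of each coding sequence that encodes the nucleotide-binding loop of chaperonins is given below, read 5′ to 3′ from GRCh38 with GENCODE v29 transcripts. The capitals mark the 5 codons of the loop, which encode glycine, aspartate, glycine, threonine and a last residue that is threonine in 7 subunits and asparagine in CCT8. A first search with threonine at the last position found no match in CCT8, so the search was widened after that. Each subunit then had 1 match, starting between codon 87 in TCP1 and codon 103 in CCT4 and CCT5.
TCP1: gaagttGGAGATGGAACTACTtcagtg
CCT2: gaagttGGTGATGGCACTACCtctgtt
CCT3: gaggttGGAGATGGGACCACAtcagta
CCT4: gaagcaGGAGATGGCACCACAtcagta
CCT5: gaaattGGAGATGGAACCACAggagtg
CCT6A: ataactGGTGATGGTACGACTtctaat
CCT7: gaggtgGGTGATGGCACCACCtcagtg
CCT8: gaagttGGAGATGGCACAAACtttgtt

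Apart from the aspartate codon, GAT in all 8 genes, and the asparagine codon of CCT8, the loop is thus written with different synonymous codons. Of its 15 bases, 7 were G or C in TCP1 and 10 were in CCT7, with the other 6 subunits at 8 or 9. None of the 5 codons ended in G or C in TCP1, against 3 in CCT7. These stretches lie at chr6:159787743-159787769 on the minus strand for TCP1, chr12:69587953-69587979 on the plus strand for CCT2, chr1:156333557-156333583 on the minus strand for CCT3 and chr2:61880338-61880364 on the minus strand for CCT4. For CCT5 the stretch lies at chr5:10254808-10254834 on the plus strand, for CCT6A at chr7:56054426-56054452 on the plus strand and for CCT8 at chr21:29067625-29067651 on the minus strand, each within 1 exon. In CCT7 it runs from chr2:73240541 to chr2:73243027 on the plus strand and crosses an intron, with 3 of its 27 bases in the first of the 2 exons.

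Over whole transcripts CCT7 again had the most GC, and CCT3 came close to it. The chosen transcripts of CCT7 and CCT3 were 51.8% and 51.2% GC, whereas those of the other 6 subunits lay between 43.1% in CCT8 and 44.7% in CCT4. The coding sequences were nearly equal in length, at 1596 bases in CCT6A to 1671 bases in TCP1. The 3′ UTRs were not, with 143 bases in CCT7, 151 in CCT8 and 1629 in CCT5. The genes are spread over 7 chromosomes. TCP1 spans chr6:159778498-159789749 (12 exons), CCT2 chr12:69585334-69601570 (16 exons), CCT3 chr1:156308968-156367873 (14 exons) and CCT4 chr2:61868089-61888804 (14 exons). CCT5 spans chr5:10249921-10266412 (11 exons), CCT6A chr7:56051630-56063989 (14 exons), CCT7 chr2:73233420-73253021 (12 exons) and CCT8 chr21:29055805-29073797 (15 exons).

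On AARS1 knockdown the 8 transcripts did not move as 1 block. CCT8, CCT6A and CCT2 rose by more than 1.5 times, TCP1 rose by 1.28 times, CCT5 and CCT3 rose by 1.12 and 1.05 times, CCT4 did not pass the test and CCT7 fell to 92.8% of control, and of these the small changes of CCT5, CCT3 and CCT4 turned direction when the library medians were set equal. In bulk RNA a change in some of the cells and a change in every cell cannot be told apart. By limma with Benjamini-Hochberg adjustment over 14199 genes, 6 subunits were higher, 1 was lower and 1 was not called at 0.05. Across all genes tested 70.7% were called, 32.6% as higher and 38.0% as lower, so a call alone was common here. All 8 subunits had groups that did not overlap, as did 85.1% of all genes tested. The split of 6 higher and 1 lower moved in either direction with the scaling of the libraries. With quantile normalization, edgeR (TMM or RLE) and DESeq2, 7 subunits were higher and 0 lower. The median of all genes was then −0.15 to −0.005, and the share of higher calls 37.0% to 53.8%. With the library medians set equal, which moved the median of all genes from −0.05 to −0.27 on the log2 scale and the share of higher calls from 46.2% to 28.8%, 4 subunits were higher and 3 lower.

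**Figure D1:**
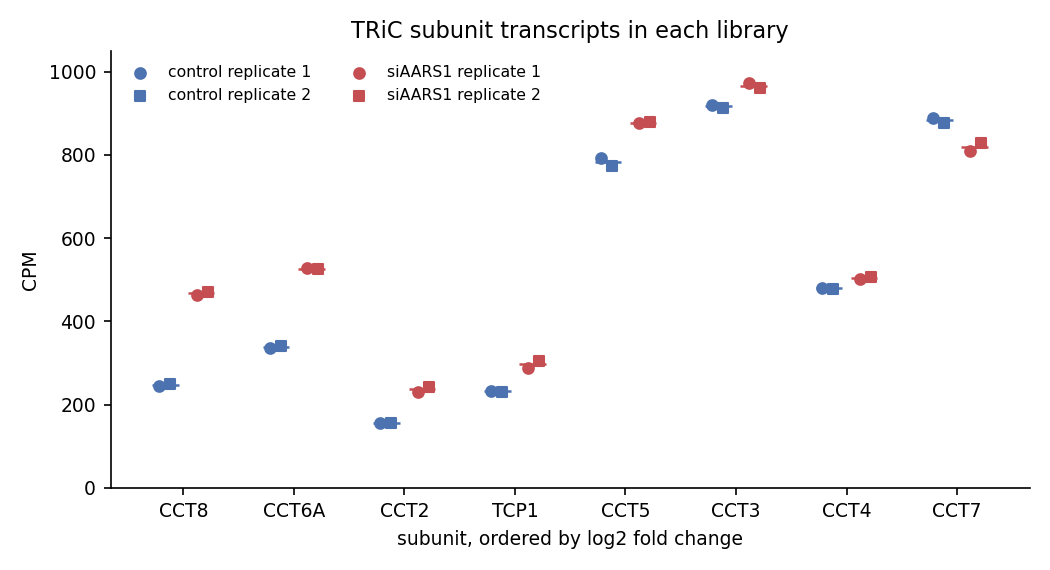
CPM of each subunit in the 2 control libraries (blue) and the 2 siAARS1 libraries (red), with horizontal lines at the group means, ordered from the largest to the smallest log2 fold change. The groups lie far apart for CCT8, from 245 and 250 to 464 and 470 CPM, and close together for CCT4, CCT3 and CCT7.

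Among the subunits on the side that binds ATP strongly, CCT2 changed most. CCT2, the beta subunit, which is also known as a receptor for autophagy of protein aggregates, stood at 155 and 155 CPM in control and at 230 and 242 CPM in siAARS1. Both siAARS1 libraries lay above both controls, with a mean 1.52 times that of control (log2 fold change 0.60, SE 0.039, adjusted p = 9.68e-12 by limma). TCP1, the alpha subunit, was at 232 and 231 CPM in control and at 289 and 305 CPM in siAARS1. It too was higher in both siAARS1 libraries, by 1.28 times (log2 fold change 0.36, SE 0.038, adjusted p = 3.51e-08 by limma).

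CCT5 and CCT4, the other two subunits of that side, moved less. CCT5, the epsilon subunit, in which inherited mutation causes a sensory neuropathy, was at 792 and 774 CPM in control and at 877 and 878 CPM in siAARS1. The groups did not overlap, and the rise was 1.12 times (log2 fold change 0.16, SE 0.034, adjusted p = 0.000207 by limma), but with equal library medians it was −0.06 and not called. CCT4, the delta subunit, was at 481 and 477 CPM in control and at 502 and 507 CPM in siAARS1. The siAARS1 libraries were again the higher ones, but the log2 fold change of 0.07 (95% confidence interval 0.00 to 0.15, not adjusted) did not pass the threshold (adjusted p = 0.0578 by limma). It was called higher by edgeR on the recovered reads, at 0.11, and called lower with equal library medians, at −0.15.

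On the side that binds ATP weakly the spread was wider as deposited, with a range of 1.02 on the log2 scale against 0.53. After the corrections for base composition described further on it was narrower, 0.38 against 0.48 and 0.34 against 0.58. CCT8, the theta subunit, stood at 245 and 250 CPM in control and at 464 and 470 CPM in siAARS1. This was the largest rise of the 8 subunits, 1.89 times (log2 fold change 0.91, SE 0.035, adjusted p = 1.13e-15 by limma), and rested on 7920 to 15623 reads a library. CCT6A, the zeta subunit, was at 337 and 340 CPM in control and at 527 and 525 CPM in siAARS1. The groups were far apart relative to the spread within them, and the rise was 1.55 times (log2 fold change 0.63, SE 0.035, adjusted p = 4.21e-13 by limma).

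CCT3 and CCT7, the gamma and eta subunits on the same side, had the smallest changes together with CCT4. CCT3 was at 920 and 913 CPM in control and at 972 and 960 CPM in siAARS1. Both siAARS1 libraries were higher by a small margin, 1.05 times (log2 fold change 0.08, SE 0.034, adjusted p = 0.0484 by limma). This call was at the edge of the threshold. It was lost without any 1 of the 4 libraries, at log2 fold changes of 0.067 to 0.085. With equal library medians CCT3 was called lower, at −0.14. It was called higher with quantile normalization (0.17), by edgeR with TMM (0.11) or RLE (0.13) and by DESeq2 (0.13). CCT7 was at 888 and 877 CPM in control and at 809 and 828 CPM in siAARS1. It was the only subunit with both siAARS1 libraries below both controls (log2 fold change −0.11, SE 0.034, adjusted p = 0.00739 by limma), and its call was lost without control replicate 1 (−0.10, adjusted p = 0.0568), with quantile normalization (−0.02) and by edgeR and DESeq2 (−0.07 and −0.06).

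After both corrections for base composition all subunits of the weakly binding side were called higher, but by unequal amounts. With the correction for GC content and length they ran from CCT7 at 0.31 to CCT8 at 0.69. The strongly binding side then held CCT2 at 0.50 beside CCT4 and CCT5 at 0.02. With that by coding sequence and 3′ UTR the weakly binding side ran from CCT8 at 0.08 to CCT3 at 0.42. The strongly binding side then ran from CCT4 at −0.38 to CCT5 at 0.20. As deposited, each side of the ring held subunits that rose strongly and subunits that hardly moved. CCT2 at 0.60 and CCT4 at 0.07 are from the side that binds ATP strongly, and CCT8 at 0.91 and CCT7 at −0.11 are from the other. The median log2 fold change of the 8 subunits was 0.26, beside a median of −0.05 over all genes tested. Their SD was 0.35, beside 0.69 over all genes, and their values ran over a range of 1.02. CCT8, CCT6A and CCT2 lay above the upper quartile of all genes (0.37), and CCT7 was the only one below the median of all genes.

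Whether the subunits moved together was tested with the mean of the complex as the reference. The mean log2(CPM + 1) of the 8 subunits was subtracted within each library from every gene, so that no scaling of a whole library can move the result, and the same limma fit was run. Since the reference is the subunits' own mean, values above it must be balanced by values below it. By this fit 7 of 8 subunits changed apart from the mean of the complex, beside 84.5% of all genes tested, a share close to theirs. CCT8 was 0.57 above the mean change (adjusted p = 1.02e-12 by limma), CCT6A 0.29 above it (adjusted p = 2.08e-07) and CCT2 0.27 above it (adjusted p = 3.07e-06). CCT7 fell short of the mean change the most (−0.45, adjusted p = 8.88e-11 by limma), with CCT4 and CCT3 both at −0.26 (adjusted p = 9.63e-07 and 1.29e-06) and CCT5 at −0.18 (adjusted p = 0.000256). TCP1 was not distinguishable from the mean of the complex (0.02, 95% confidence interval −0.07 to 0.10, adjusted p = 0.703 by limma). The count of 7 was the same without any 1 of the 4 libraries.

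As deposited, these unequal changes made the transcript levels of the subunits more alike. The levels that follow were not corrected for base composition. CCT7 and CCT3, which led in control, had the most GC. After the correction for GC content and length described further on, the log2 fold changes of CCT7, CCT3 and CCT2 were 0.31, 0.46 and 0.50. After that by coding sequence and 3′ UTR they were 0.28, 0.42 and 0.04. Whether the levels became more alike on corrected values was not tested. Levels were compared between genes as CPM per kb of the chosen transcript. In control, CCT7 and CCT3 led, at 461 ± 4.19 and 426 ± 2.57 CPM per kb (SD, n = 2), followed by CCT5 at 213 ± 3.53 and CCT4 at 190 ± 1.26 CPM per kb. CCT6A at 125 ± 0.804 and CCT8 at 123 ± 1.48 CPM per kb came next and overlapped between libraries. TCP1, at 92.6 ± 0.482 CPM per kb, and CCT2, at 75.9 ± 0.289 CPM per kb, were lowest. The highest of the 8 levels was 6.12 and 6.01 times the lowest in the 2 control libraries.

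In siAARS1 the order per kb of the whole transcript was different at several places. CCT3 led at 449 ± 3.83 CPM per kb (SD, n = 2), above CCT7 at 427 ± 6.87 CPM per kb, the reverse of control. CCT5 kept its place after these, at 239 ± 0.110 CPM per kb here. CCT8 moved from the sixth to the fourth place at 233 ± 2.11 CPM per kb, ahead of CCT4 at 200 ± 1.38 and CCT6A at 193 ± 0.667 CPM per kb. TCP1 and CCT2 remained lowest at 119 ± 4.60 and 116 ± 4.11 CPM per kb, and their libraries overlapped. The ratio of highest to lowest level was 4.01 and 3.76 in the 2 siAARS1 libraries, below both controls.

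Expressed as shares of the summed level per kb, CCT7 went from 26.99% to 21.6% and CCT3 from 25.0% to 22.7%, whereas CCT8 went from 7.23% to 11.8%, CCT6A from 7.30% to 9.79% and CCT2 from 4.45% to 5.86%. CCT5 (12.49% and 12.08%), CCT4 (11.1% and 10.1%) and TCP1 (5.43% and 6.01%) moved less. The SD of the 8 log2 levels per kb was 0.968 and 0.957 in control and 0.740 and 0.715 in siAARS1. The summed CPM of the subunits was 4052 and 4016 in control and 4671 and 4715 in siAARS1, a mean 1.16 times that of control, and both measures separated the groups. The rise of the sum depends on the scaling: divided by the median CPM of the genes tested in each library, a measure added after the data were seen, the sum in siAARS1 was 0.993 times that in control. An exact permutation test of 2 against 2 libraries cannot give a two-sided p below 0.333, which is the p of the SD and of the summed CPM. The levels per kb depend on the transcript chosen. Per kb of coding sequence CCT5, whose long 3′ UTR then drops out, rose to 482 CPM per kb in control, close to CCT7 at 541 and CCT3 at 560 CPM per kb. The changes of order given above for CCT3 and CCT8 were then absent. CCT3 had rank 1 and CCT8 rank 6 in both groups, whereas CCT6A moved from rank 5 to rank 4 and CCT5 from rank 3 to rank 2.

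**Figure D2:**
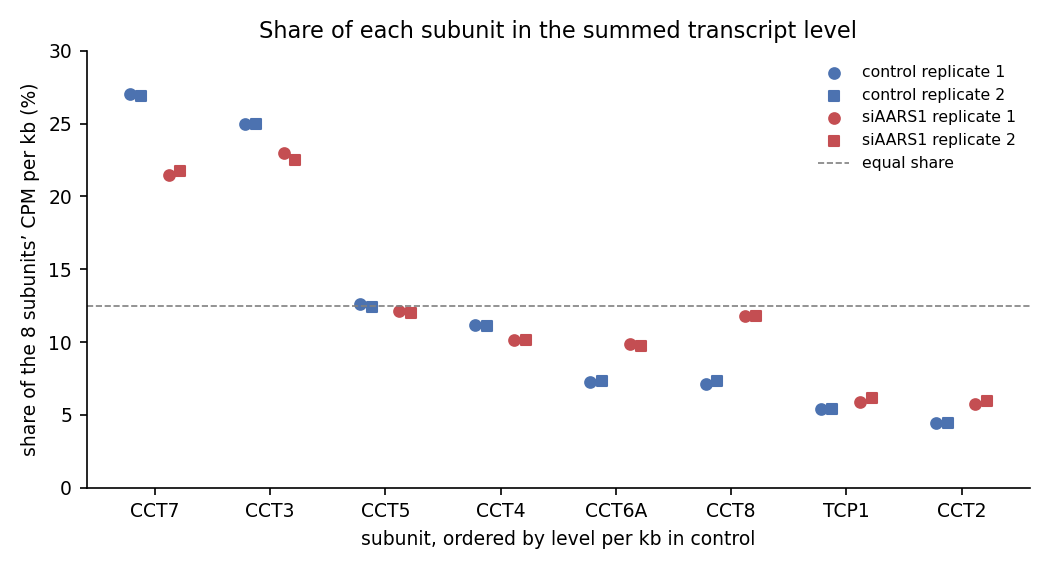
Share of each subunit in the summed CPM per kb of the 8 subunits (%), in each control (blue) and siAARS1 (red) library, ordered by the level in control, with a dashed line where all shares would be equal. CCT7 and CCT3 lie above the line in both groups and move towards it in siAARS1, and CCT8 moves from 7.23% to 11.8%.

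The size of the change went with base composition, both among the subunits and over all genes. Across the 8 subunits the log2 fold change had a Pearson correlation of −0.72 and a Spearman correlation of −0.88 with the GC content of the transcript (n = 8 genes of the same 4 libraries, given as a description). Over 13819 genes with a transcript the Spearman correlation was −0.65. CCT3 and CCT7, with the most GC, had changes of 0.08 and −0.11, and CCT8, with the least, had 0.91. The order was not exact, since TCP1, at 43.8% GC, had 0.36, below CCT2 and CCT6A, both at 44.1%, with 0.60 and 0.63. CCT5 and CCT4 had more GC than CCT6A by less than 1 percentage point and had 0.16 and 0.07 against 0.63. In the coding sequence CCT5, CCT4 and CCT6A were at 47.7%, 44.1% and 45.0% GC. With transcript length the correlation was near 0 among the subunits (Spearman 0.07) and 0.30 over all genes. The change also went with the level in control (Pearson −0.79 and Spearman −0.69 with log2 CPM), the subunits with the lower CPM rising more, whereas over all genes the Spearman correlation was −0.15.

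**Figure D3:**
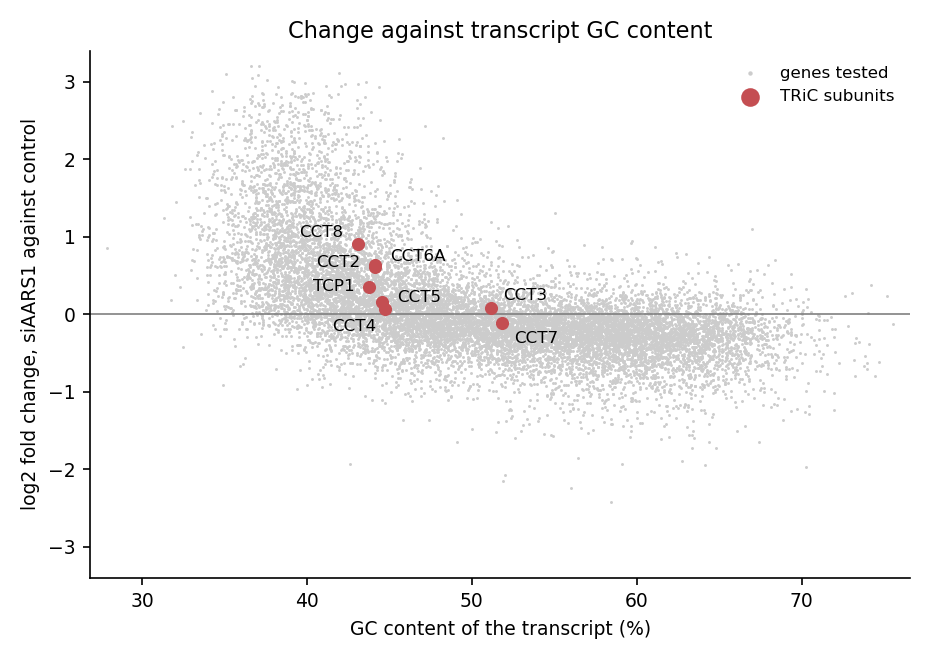
Log2 fold change of siAARS1 against control plotted against the GC content of the transcript (%), for 13819 genes tested (grey) and the 8 TRiC subunits (red, named). The grey cloud slopes down as GC content rises, and the subunits lie within it, with CCT8 highest and CCT7 lowest.

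To see what was left beside this trend, the smooth trend with transcript GC content and length was taken out of each library. A real change that tracks these properties is removed along with it. After this correction 6 subunits were higher and none was lower, with a median of 0.38 beside 0.11 over all genes. Of all genes, 44.3% were then called higher and 25.6% lower, so calls moved upwards as a whole. CCT8 stayed the largest at 0.69, with CCT2 and CCT6A at 0.50 each. The GC-rich subunits changed most with the correction: CCT3 went to 0.46 and CCT7 to 0.31, both called higher by limma (adjusted p = 4.47e-11 and 2.04e-08). TCP1 was at 0.19, and CCT4 and CCT5 were both at 0.02 and not called (adjusted p = 0.574 and 0.492 by limma). Relative to the mean of the complex, 7 of 8 subunits differed, the exception now being CCT7, beside 72.5% of all genes.

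A correction by the GC content and length of the coding sequence and the 3′ UTR, a second way to describe the same transcripts, gave another order. CCT3 was then highest at 0.42, followed by CCT6A at 0.32, CCT7 at 0.28, CCT5 at 0.20 and CCT8 at 0.08. CCT2 was not called at 0.04 (adjusted p = 0.285 by limma), and TCP1 and CCT4 were called lower at −0.24 and −0.38. The median of the subunits was 0.14, beside 0.13 over all genes. With 5 subunits higher and 2 lower, the share of higher calls over all genes was 48.2% and that of lower calls 25.1%, and CCT8 lay below the median of all genes. Of the 8 subunits, only CCT3, CCT6A and CCT8 were called higher as deposited and under both corrections, and 6 of 8 differed from the mean of the complex under this one, beside 71.5% of all genes. The targeted gene itself was sensitive to these corrections, with AARS1 at −0.15 after the first and −0.30 after the second, against −0.52 as deposited.

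**Figure D4:**
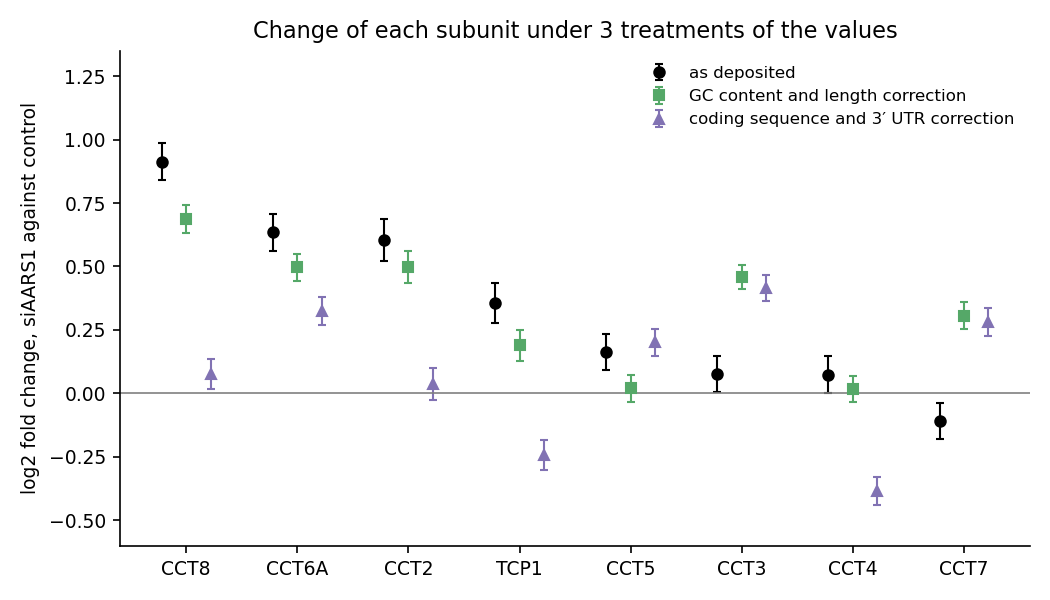
Log2 fold change of each subunit with its 95% confidence interval as deposited (black circles), after correction for transcript GC content and length (green squares) and after correction for the coding sequence and 3′ UTR (purple triangles). CCT8 goes from 0.91 to 0.69 and 0.08, and CCT7 from −0.11 to 0.31 and 0.28.

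Some reads of the subunits could belong to other genes. CCT6A has near copies elsewhere in the genome, of which a pair was listed. CCT6P1, a pseudogene transcript with 94.9% identity to CCT6A over 1536 aligned bases, was at 3.02 and 2.99 CPM in control and at 4.70 and 5.32 CPM in siAARS1 (log2 fold change 0.58, adjusted p = 0.000471 by limma). CCT6P3, with 93.3% identity over 1259 bases, was at 5.19 and 5.67 CPM in control and at 6.41 and 7.10 CPM in siAARS1 (log2 fold change 0.27, adjusted p = 0.0458 by limma). Both moved in the direction of CCT6A, and both were under 2% of its CPM. Exons of TCP1 overlap those of ACAT2, an acetyl-CoA acetyltransferase gene on the opposite strand, by 397 bases. ACAT2 was at 93.9 ± 2.25 CPM in control and 104 ± 0.825 CPM in siAARS1 (SD, n = 2). Exons of CCT4 overlap those of COMMD1 on the opposite strand by 81 bases, and COMMD1 was at 19.6 ± 0.463 and 17.0 ± 1.08 CPM. Antisense genes that overlap exons of CCT4 and CCT5, by 275 and 1757 bases, were not listed. The use of strand in counting is not given in the sources used here, so reads of these overlaps cannot be told apart.

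Promoter windows from RefSeq (GRCh38.p14, 250 bases before to 50 after the start) were found for 7 of the 8 subunits, with none for CCT6A, and were searched on both strands. The heat shock factor element, searched as GAANNTTC or TTCNNGAA, was present in the windows of TCP1, CCT2 and CCT4, 3 of 7, and in 13.8% of the windows of 10387 listed genes. It is shown for TCP1 and CCT2, where it lies before the start, with the element in capitals, because genes of chaperones are classic targets of heat shock factors.
TCP1: tttgaggcGAAGGTTCaacctctt
CCT2: ggagcgaaGAAATTTCtagtgtgg

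The TCP1 stretch is chr6:159789818-159789841 on the minus strand, and the CCT2 stretch is chr12:69585792-69585815 on the plus strand, in the second of its 2 windows. CCT8, which rose most, had no match to these letters in its window, nor did CCT3, CCT5 or CCT7. CCAAT was found in 4 of 7 subunits (43.4% of listed genes), GGGCGG in 5 (77.1%), GCGCNTGCG, an NRF1 motif, in 3 (17.3%), CCGGAAG, an ETS motif, in CCT2 alone (22.2%) and CCCANNATG, a ZNF143 motif, in CCT7 alone (6.28%). GGAATG, a TEAD motif, was found in 0 of 7 windows and in 14.8% of those of listed genes. No matches of different motifs overlapped in these windows. The shares are descriptions of letters and not of binding.

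Chaperones that work with TRiC were described from lists. Prefoldin, which carries unfolded actin and tubulin to TRiC, has 6 subunits, and 1 rose, 4 fell and 1 was not called, with a median of −0.14. As deposited 32.6% of all genes were called higher and 38.0% lower. VBP1 went against the others, at 54.3 and 51.9 CPM in control and at 79.3 and 80.7 CPM in siAARS1, with no overlap (log2 fold change 0.58, adjusted p = 8.54e-10 by limma). PFDN6 (−0.34), PFDN1 (−0.21), PFDN5 (−0.19) and PFDN2 (−0.10) fell, and the call of PFDN2 was lost without control replicate 1 (−0.063, adjusted p = 0.344 by limma) or siAARS1 replicate 2 (−0.070). PFDN4 was at 0.08 (adjusted p = 0.401 by limma). As deposited the prefoldin subunits thus changed in both directions, and whether they moved apart from their own mean was not tested. After the correction for GC content and length 3 were higher and 2 lower, close to the 44.3% and 25.6% of all genes, and VBP1 was then at −0.18.

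The phosducin-like proteins bind TRiC and modulate folding of its clients. TXNDC9 was at 16.9 and 18.5 CPM in control and at 32.3 and 33.1 CPM in siAARS1, with no overlap (log2 fold change 0.85, adjusted p = 8.13e-10 by limma). PDCL3 also rose (0.43), PDCL was at 0.02 (adjusted p = 0.857 by limma), and PDCL2 was not listed. PDCL3 kept its direction and call under both corrections (0.69 and 0.39), whereas TXNDC9 was at 0.23 and −0.09.

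Relatives of TRiC moved upwards as deposited, 5 of the 5 listed, with a median of 0.39, beside 32.6% of all genes called higher. The call of BBS12 was lost without any 1 of the 4 libraries (adjusted p = 0.0601 to 0.175 by limma), which left 4. HSPD1, the mitochondrial chaperonin Hsp60, stood at 574 and 589 CPM in control and at 1406 and 1424 CPM in siAARS1. Its groups were far apart and its mean was 2.44 times that of control (log2 fold change 1.28, adjusted p = 2.02e-18 by limma), a larger rise than that of any TRiC subunit. It was also higher after both corrections, at 1.17 and 0.58. Its partner HSPE1, the lid of the mitochondrial chaperonin, rose by 0.39 on the log2 scale and was at 0.78 and −0.15 after the corrections. MKKS (0.32), BBS10 (0.80) and BBS12 (0.34, adjusted p = 0.0471 by limma), chaperonin-like proteins of the Bardet-Biedl complex that acts with TRiC, rose as deposited. None of the 3 was called higher after either correction. MKKS was called lower after both (−0.75 and −0.48) and BBS10 after the second (−0.39), whereas BBS12 was called after neither. CCT6B, a testis form of CCT6A, was not listed.

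Clients of TRiC went the other way as deposited. Of 14 actin and tubulin genes, 0 rose, 12 fell and 2 were not called (TUBB3 at 0.01 and TUBB6 at −0.12), with a median of −0.27. Over all genes tested 32.6% were called higher and 38.0% lower. The beta tubulin TUBB4A went from 52.9 and 52.1 CPM to 27.3 and 25.4 CPM (log2 fold change −0.97, adjusted p = 4.76e-12 by limma), the largest fall on the log2(CPM + 1) scale. In mean CPM TUBA4A fell further, to 48.0% of control against 50.3% for TUBB4A. The alpha tubulins TUBA4A (−0.86) and TUBA1A (−0.77) followed TUBB4A on the log2(CPM + 1) scale. These 3 remained lower after both corrections, but for the list as a whole 8 genes were then higher and 4 lower under each, near the shares of all genes (44.3% and 25.6% under the first, 48.2% and 25.1% under the second). Tubulin and actin genes have close paralogs, and how the authors' counting shared reads among them is not given in the sources used here.

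Other clients had a median of −0.25, with 0 of 12 higher, 11 lower and RPTOR not called (−0.09). As deposited the shares over all genes were 32.6% higher and 38.0% lower. STAT3, a transcription factor of cytokine signalling, had the largest fall, from 90.2 and 93.6 CPM to 56.5 and 57.8 CPM (log2 fold change −0.68, adjusted p = 3.90e-11 by limma), and was also lower after both corrections (−0.49 and −0.56). GNB2, a G protein beta subunit (−0.43), and CCNE1, cyclin E (−0.39), followed, and after the first correction they were at 0.12 and 0.02. Under each correction 7 of the 12 were higher, with 1 lower under the first and 2 under the second, beside 44.3% and 48.2% of all genes higher.

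The tubulin folding cofactors, which take tubulin from TRiC and join the dimer, fell in 4 of 5 cases as deposited. The share of all genes called lower was 38.0%. TBCA was at −0.23, TBCB at −0.25, TBCC at −0.20 and TBCD at −0.23, and TBCE was higher at 0.21. TBCE was not called without control replicate 1 (0.12, adjusted p = 0.183 by limma), nor TBCC without control replicate 2 or siAARS1 replicate 1 (−0.19 and −0.17). After the corrections TBCB was at 0.29 and 0.46 and TBCC at 0.27 and 0.40, all called higher. TBCA was called lower after both, at −0.68 and −0.67. TBCD was at −0.07 and not called after the first, and was called lower at −0.20 after the second. TBCE had no corrected value. Of the factors that drive heat shock genes, HSF2 rose from 11.6 and 14.2 CPM to 22.9 and 22.4 CPM (log2 fold change 0.77, adjusted p = 1.22e-07 by limma) and HSF1 fell by 0.14 on the log2 scale (adjusted p = 0.0240 by limma). The call of HSF1 was lost without control replicate 1, control replicate 2 or siAARS1 replicate 2 (adjusted p = 0.0910 to 0.125 by limma) and by edgeR and DESeq2. After the first correction HSF2 was at 0.27 and HSF1 at 0.39, both called higher, and after the second HSF2 was at −0.17 and not called and HSF1 was at 0.45.

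**Figure D5:**
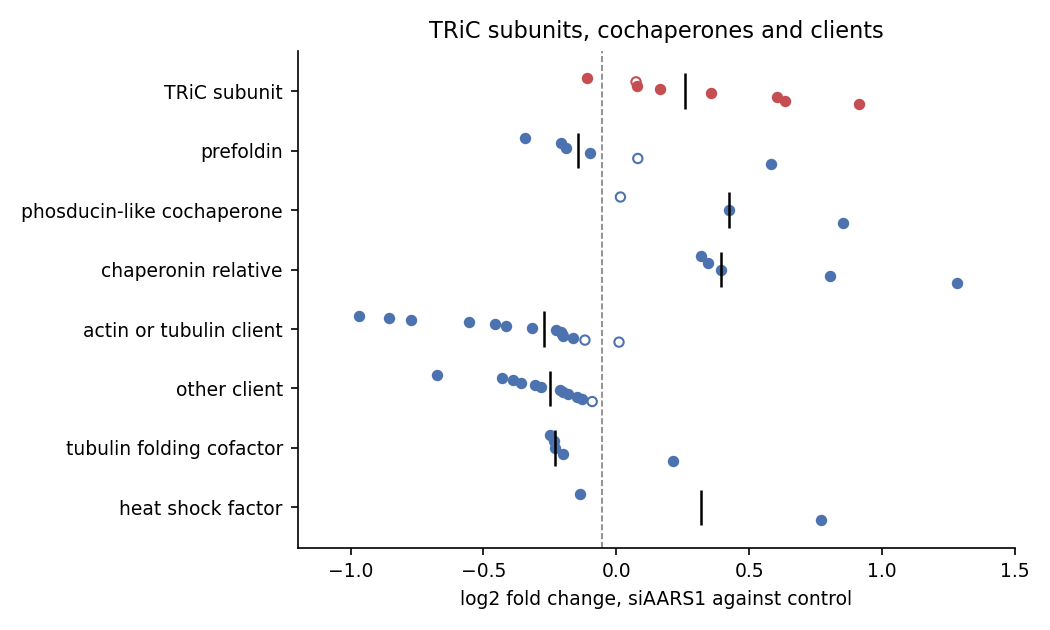
Log2 fold change as deposited of each TRiC subunit (red) and of genes of the companion lists (blue), filled where called by limma at 0.05 and open where not, with black lines at the list medians and a dashed line at the median of all genes (−0.05). The 8 subunits run from −0.11 to 0.91, and the actin, tubulin and other clients lie mostly to the left of the dashed line.

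The genes whose profile over the 4 libraries was nearest to the mean profile of the 8 subunits were ZNF461, B3GALNT2 and PSMD5, at Euclidean distances of 0.00746, 0.00936 and 0.0128 between centred log2(CPM + 1) values. PSMD5 was at 63.3 and 62.8 CPM in control and at 78.5 and 80.3 CPM in siAARS1. With 4 libraries in 2 groups, such likeness says little more than that the difference between groups was of the same size.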

How the data were processed

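The authors deposited 1 table of CPM values for 14431 genes in 4 libraries. The submitters' processing notes name RSEM 1.3.3 and hg38, with no role given, and strand use and annotation are not given in the sources used here. Every listed gene exceeded 1 CPM in at least 1 library. Values in each library were whole multiples of that of 1 read (100% within 0.1 read), which gave the reads. Groups were taken from the labels. CPM does not correct for gene length, GC content or composition, and intervals cover the spread of 2 libraries a group.

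limma 3.58.1 (R 4.3.3, eBayes with trend) was run on log2(CPM + 1) for genes that averaged 1 CPM or more in either group, with no covariate, since a test of single genes is not given in the sources used here. P-values were adjusted by Benjamini-Hochberg across every gene tested, and the threshold was 0.05. Fold changes on this scale understate those of low genes. The corrections used mgcv 1.9.3 and 1 GENCODE v29 transcript a gene (APPRIS principal, then the longest coding sequence), available for 97.3% and 85.8% of genes tested; the second was added after the data were seen, as was the search for an asparagine codon. Alternatives were a pseudocount of 0.1, no filter, median scaling, quantile normalization, a replicate block, leaving out each library, a threshold of 0.01, and edgeR 4.0.16 (TMM, RLE) and DESeq2 1.42.0 on the recovered reads. The fits were tested on simulated data.

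Genes named were all subunits, AARS1 (listed as AARS), listed CCT6A copies, all members of lists of 6 or fewer, the 3 called genes of longer lists with the largest change, and the 3 nearest profiles. ACAT2, COMMD1, TUBB3, TUBB6 and RPTOR were named after their values were seen. The subunits and lists were chosen with earlier results of these data known.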

Additional observations from a re-analysis of the deposited data

How the results depend on the processing

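The limits of these results are the 2 libraries a group, the scaling, and a trend with base composition that the corrections describe in different ways. The count of subunits apart from the mean of the complex was 6 to 7 in the alternatives run, and was not run with edgeR with RLE or DESeq2. The number called higher was 4 to 7. The number called lower (1) was 3 with median scaling, 0 with quantile normalization, edgeR with TMM or RLE, DESeq2 and the GC content and length correction, and 2 with the correction by coding sequence and 3′ UTR. The median log2 fold change of the subunits (0.26) was 0.040 with median scaling, 0.30 with quantile normalization and edgeR with TMM, 0.31 with edgeR with RLE and DESeq2, 0.38 with the GC content and length correction and 0.14 with the correction by coding sequence and 3′ UTR. Leaving out each library gave 0 to 1 called lower, the 0 without control replicate 1, and a median of 0.24 to 0.28; these fits assume that the lone library of a group varies like the other group.

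The replicate numbers are shared between groups, but nothing says that they mark pairs. The deviations of same-numbered libraries had a correlation of 0.118 over only 2 pairs. With the replicate number as a block 5 subunits were higher and 1 lower (CCT3 was lost, adjusted p = 0.0674 by limma), and 10389 genes were called against 10032. With the block and the GC content and length correction together, 0 were lower, and the median of 0.38 and the reversed values given next were the same as without the block.

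Directions turned as follows. With median scaling CCT3 was at −0.14, CCT4 at −0.15, CCT5 at −0.056, PFDN4 at −0.14, PDCL at −0.20 and TBCE at −0.0054. With quantile normalization PFDN4 was at −0.15, PDCL at −0.19 and TCP1 relative to the complex at −0.0079. Leaving out libraries turned only values near 0 that were not called: PFDN4 (−0.017 to 0.18), PDCL (−0.087 to 0.12) and TCP1 relative to the complex (−0.010 to 0.045). With the GC content and length correction CCT7 was at 0.31, PFDN1 at 0.13, PFDN2 at 0.36, VBP1 at −0.18, PFDN4 at −0.83, PFDN5 at 0.24, PFDN6 at 0.083, PDCL at −0.69, MKKS at −0.75, BBS10 at −0.14, GNB2 at 0.12, CCNE1 at 0.018, TBCB at 0.29, TBCC at 0.27 and HSF1 at 0.39. Relative to the complex TCP1 was then at −0.14 and CCT3 at 0.12. With the correction by coding sequence and 3′ UTR TCP1 was at −0.24, CCT4 at −0.38, CCT7 at 0.28, PFDN2 at 0.27, VBP1 at −0.022, PFDN4 at −0.81, PFDN5 at 0.37, PFDN6 at 0.32, TXNDC9 at −0.09, MKKS at −0.48, BBS10 at −0.39, BBS12 at −0.22, HSPE1 at −0.15, GNB2 at 0.23, TBCB at 0.46, TBCC at 0.40, HSF1 at 0.45 and HSF2 at −0.17. Relative to the complex TCP1 was at −0.33, CCT2 at −0.052, CCT3 at 0.33, CCT5 at 0.11, CCT7 at 0.19 and CCT8 at −0.012. The cause of these turns was not tested beyond the construction of each alternative.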
